A study of Mus musculus with 6 samples.

Results

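Somites are blocks of paraxial mesoderm that form in pairs along the trunk and give rise to skeletal muscle, vertebrae and dermis, and 10 transcription factor genes of their formation and of the first steps of skeletal muscle were examined in diabetes-exposed and control embryos: Myf5, Myf6, Myod1, Myog, Meox1, Meox2, Tcf15, Tbx6, Tbx18 and Mesp2. The genes were chosen by name, and every probe set that the platform's table pairs with 1 of these symbols alone was read, which gave 13 of the 45101 probe sets of the array and covered all 10 genes. Of the 13 probe sets 12 were bright enough to be tested, among 30024 tested probe sets and 13956 tested genes in all. The diabetes-exposed embryos came from FVB dams that were aged 7 to 9 weeks when diabetes was induced, before mating. These dams had received 2 intraperitoneal injections of 100 mg streptozotocin per kg body weight, a toxin of the insulin-producing cells, within a week, and their blood glucose exceeded 250 mg per dl. The control embryos came from FVB pregnancies without diabetes, and whether their dams received an injection of buffer is not given in the sources used here. All embryos were collected whole at 10.5 days of gestation and, by the study's methods, were morphologically normal. Each sample was a pool of RNA from 3 embryos of different pregnancies, hybridised to 1 Affymetrix mouse whole-genome array, with 3 diabetes-exposed and 3 control pools, hence 9 embryos per group.

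In the trunk, Tbx6 assigns cells to the presomitic mesoderm and Mesp2 sets the border of the next segment, after which Tcf15 (also called paraxis) is required for the segment to become an epithelial somite. Meox1 and Meox2 are homeobox genes of the somite, and Tbx18 marks and maintains its anterior compartment. Muscle is then determined by the basic helix-loop-helix (bHLH) factors Myf5, Myf6 and Myod1 and differentiates under Myog, all of which bind E-boxes, DNA sites of the form CANNTG, together with an E-protein such as Tcf3.

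The arrays were comparable in scale but not in all respects. The mean signal of each array without its extremes was 500, since the authors scaled it so, while the median signal was 74.1 to 78.9 in the diabetes-exposed pools and 82.5 to 103.3 in the control pools. The poly-A spikes, bacterial transcripts added before labelling, gave a ratio of 3' to middle signal of 6.56, 3.47 and 7.00 on the diabetes-exposed arrays, against 2.10, 2.07 and 2.52 on the control arrays. Beta-actin had 3' signals that exceeded its 5' signals by 10.1, 3.09 and 10.3 times in the diabetes-exposed pools and 1.71, 1.76 and 2.19 in the control pools. Diabetes-exposed replicate 2 was thus the exposed pool nearest the controls, and in both ratios the groups did not overlap (two-sided exact permutation p = 0.1, the smallest that 3 against 3 arrays allow). All 12 genes of a list of somite and myotome markers, that is the 10 genes and Pax3 and Pax1, were above the filter on dim probe sets. So were all 17 cardiomyocyte, 18 neural and 8 blood markers on the array. Markers of these parts of an embryo were thus measured, but passing the filter does not show what else a pool held. Of 9 decidua and placenta markers on the array 2 were above the filter, and they went opposite ways. Prl8a2 fell by 7.42 on the log2 scale (limma, adjusted p = 9.7e-08), and Hand1, which the embryo itself also makes, rose by 0.61 (adjusted p = 0.0079). The summed signal of the 9 was 451.1 to 513.2 in the diabetes-exposed pools and 5999 to 6813 in the control pools. Since the other 7 were under the filter, this difference does not show that the 9 fell together. Of yolk sac and liver markers 7 of 8 were above the filter, and Apoa4 was not. Among the 7, 2 rose and 0 fell, where 17.6% of all tested genes rose and 19.9% fell. The summed signal of the 8 was 7359 to 11180 in the diabetes-exposed and 4760 to 5483 in the control pools, while the summed blood markers overlapped. The part of these differences in the values given here was not tested.

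Among the 10 genes, Myf5 and Meox2 rose, Tcf15 fell, and the other 7 did not pass the test when each gene was read at its brightest probe set. Myf5 was 1.80-fold and Meox2 1.31-fold higher in the diabetes-exposed pools, and Tcf15 was 2.89-fold lower. Genes are called higher (rose) or lower (fell) where limma, a linear model fitted to all tested probe sets, gave an adjusted p under 0.05. The 2 that rose stand beside 17.6% of all tested genes that rose, and the 1 that fell beside 19.9% that fell, so that the counts are near those of genes at large. Under median centring of the arrays this background was 4066 genes that rose and 1218 that fell, and under quantile normalization 3365 and 2143, against 2461 and 2779 with the signals as deposited. By probe sets, 2 of the 12 tested rose, where 14.4% of all tested probe sets did, and 2 fell, where 21.8% did. The groups did not overlap for 6 of the 12, where 49.9% of all tested probe sets had groups that did not overlap. The median log2 fold change of the 10 genes was 0.12, against -0.00025 over all tested genes, and the range ran from -1.53 to 0.85. In whole embryos, fewer cells of a type and less RNA per cell cannot be told apart.

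**Figure D1:**
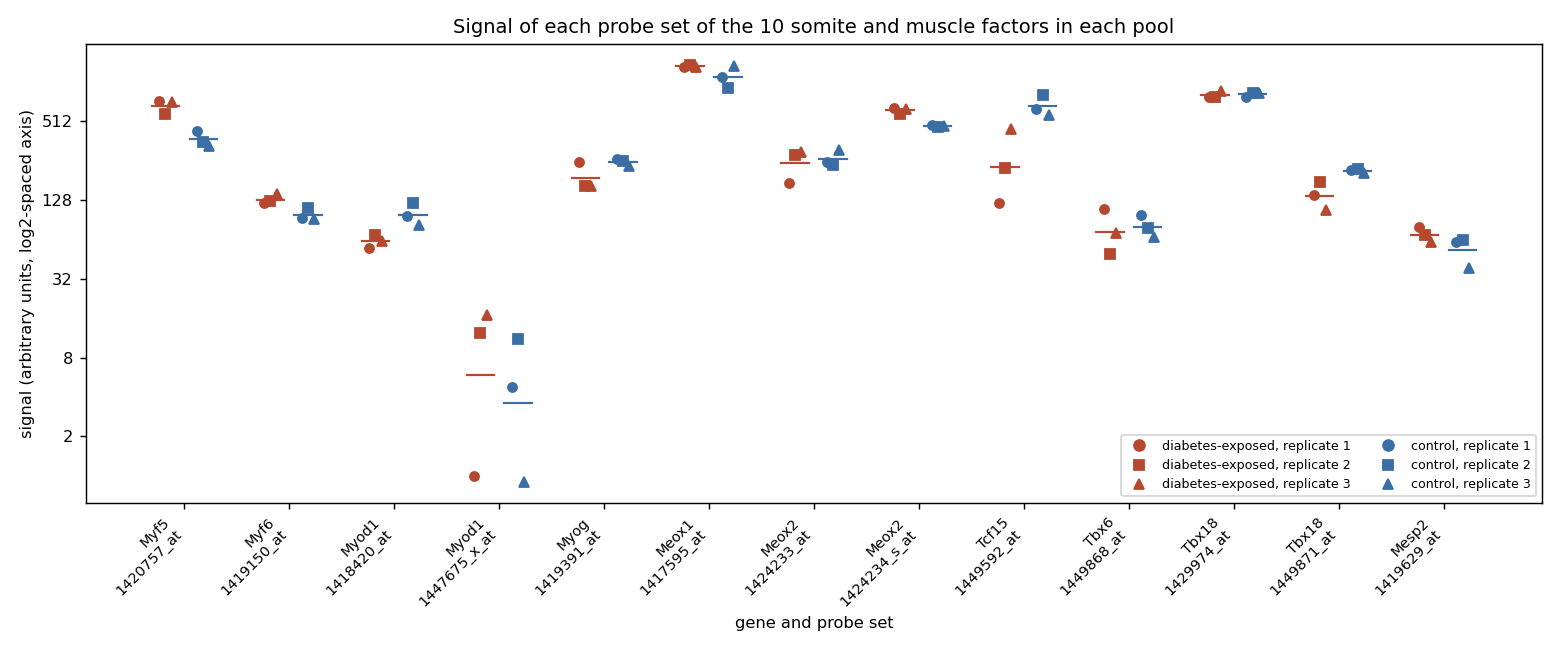
Signal in arbitrary units (vertical axis, spaced on a log2 scale) of the 13 probe sets of the 10 genes, with 1 point per pool, diabetes-exposed pools left of control pools, and a bar for each group's geometric mean. Myf5 stands at 576.9 to 729.1 in the diabetes-exposed pools and at 332.1 to 434.2 in the control pools, and the 3 diabetes-exposed pools are spread widest for Tcf15 among the tested probe sets, from 121.6 to 442.8.

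Myf5 is the first of the muscle determination genes to be switched on in the mouse somite. Its signal was 729.1, 576.9 and 712.3 in diabetes-exposed replicates 1, 2 and 3, against 434.2, 354.0 and 332.1 in the control replicates. Every diabetes-exposed pool lay above every control pool, and within each group the highest pool was 1.26 and 1.31 times the lowest. The mean was 673 ± 83.4 in the diabetes-exposed and 373 ± 53.8 in the control pools (SD, n = 3 each), a log2 fold change of 0.85 with a 95% interval of 0.51 to 1.19 (limma, adjusted p = 0.0033). A rise at least as large was seen in 3.29% of all tested genes. Of the diabetes-exposed pools, the one with the lowest spike ratio also had the lowest Myf5 signal. Given the spike ratio as covariate the log2 fold change was 0.54 (adjusted p = 0.45). Diabetes-exposed replicate 2, as a single pool, stood 0.64 above the mean of the controls.

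The promoter of Myf5 is shown because Myf5 had the largest rise, and that of Myog because it is the classic target through which the determination factors act. Both are windows of 250 bases before to 50 bases after the start of the gene, from RefSeq, with E-boxes in capitals, and RefSeq's table held such a window for 6 of the 10 genes (Myf5, Myog, Meox2, Tbx6, Tbx18 and Mesp2). The Myf5 window lies at chr10:107486085-107486384, minus strand, and the Myog window at chr1:134289754-134290053, plus strand (GRCm38.p6).
Myf5: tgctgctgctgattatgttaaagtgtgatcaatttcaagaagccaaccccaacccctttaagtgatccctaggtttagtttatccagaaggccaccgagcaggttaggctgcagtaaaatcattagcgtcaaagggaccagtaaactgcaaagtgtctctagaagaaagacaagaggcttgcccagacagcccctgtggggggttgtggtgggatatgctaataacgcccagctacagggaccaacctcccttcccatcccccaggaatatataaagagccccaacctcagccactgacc
Myog: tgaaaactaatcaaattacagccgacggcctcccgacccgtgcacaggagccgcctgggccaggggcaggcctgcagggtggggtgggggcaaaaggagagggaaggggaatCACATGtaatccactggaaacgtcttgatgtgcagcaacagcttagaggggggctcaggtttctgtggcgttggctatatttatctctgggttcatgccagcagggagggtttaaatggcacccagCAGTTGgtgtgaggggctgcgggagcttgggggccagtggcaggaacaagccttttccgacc

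An E-box was counted wherever the letters CANNTG occurred, which read the same on both strands. The Myf5 window held 0 and the Myog window held 2, CACATG and CAGTTG. Of 32851 windows of the same length in the table, 72.3% held at least 1 and 39.6% at least 2. These matches describe the letters of a window and say nothing about binding.

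Myf6, also called MRF4, is the direct neighbour of Myf5 in the reference list of genes and, like it, a determination factor. Its signal was 120.5, 125.4 and 141.6 in the diabetes-exposed pools and 92.9, 112.0 and 91.9 in the control pools. The groups did not overlap, but the gene did not pass the test: the log2 fold change was 0.39 with an interval of -0.091 to 0.87 (limma, adjusted p = 0.19). The adjusted p was 0.077 with no variance trend, and Myf6 passed the test under median centring (0.69, adjusted p = 0.041) and quantile normalization (0.71, adjusted p = 0.030).

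Myod1, the determination factor that drives both the limb and trunk muscle programmes, pointed the other way. Its bright probe set read 55.3, 69.4 and 61.9 in the diabetes-exposed pools, against 95.9, 122.0 and 83.1 in the control pools. All diabetes-exposed pools lay below all control pools, with a log2 fold change of -0.68, an interval of -1.29 to -0.067 and an adjusted p of 0.081 in limma. At an unadjusted p of 0.033 the interval leaves out 0, but the gene did not pass the test after adjustment. A second probe set read 1.0 to 16.9 in the diabetes-exposed and 0.9 to 11.1 in the control pools, which is under the filter at a signal of 26.7, and was not tested.

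Myog, which commits myoblasts to differentiate, read 248.0, 164.8 and 163.8 in the diabetes-exposed pools and 262.9, 253.0 and 233.3 in the control pools. Diabetes-exposed replicate 1 lay within the range of the controls, whereas the other two lay below it. The log2 fold change was -0.40, with an interval of -0.86 to 0.050 (limma, adjusted p = 0.15). Without diabetes-exposed replicate 1 it was -0.60 (adjusted p = 0.042). Under the 3 other scalings of the arrays it stood between -0.17 and -0.074.

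**Figure D2:**
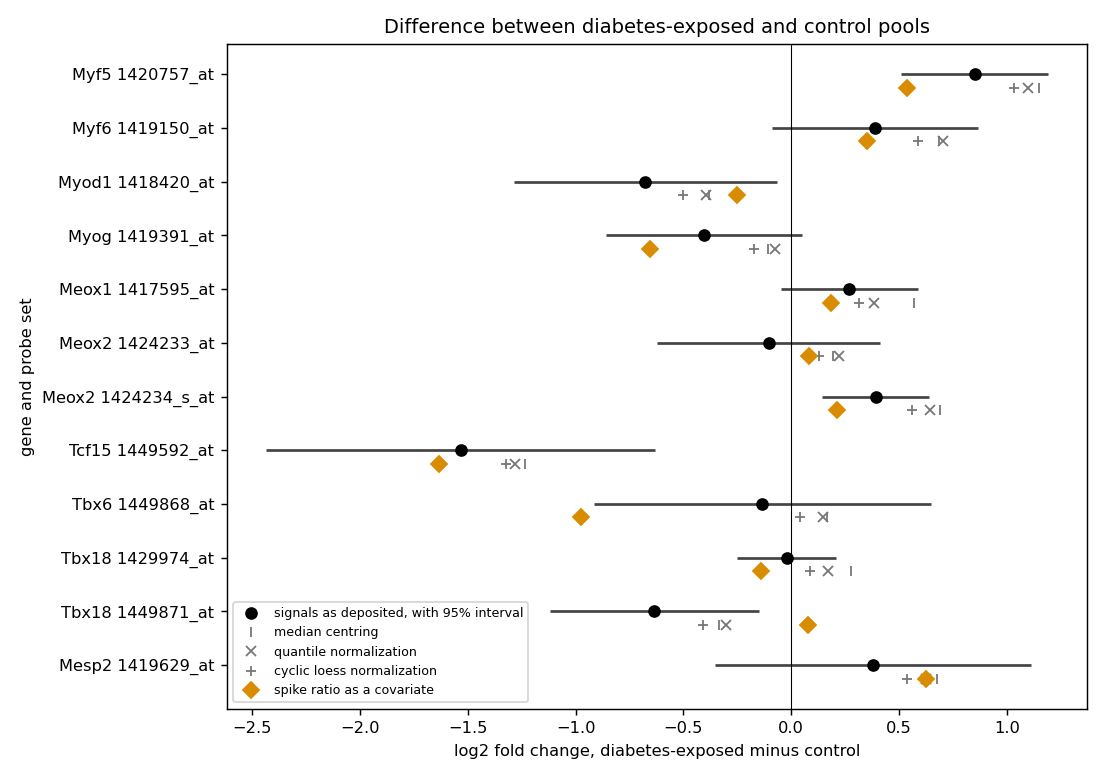
Log2 fold change, diabetes-exposed minus control (horizontal axis), of the 12 tested probe sets as deposited (black points, with 95% intervals), after 3 other scalings of the arrays (grey marks) and given the spike ratio as covariate (orange diamonds). The interval of Tcf15 runs from -2.44 to -0.63, the intervals of Myf5 and of 1 Meox2 probe set lie above 0, and the dimmer Tbx18 probe set (the one with a value below 0 and an interval that leaves it out) stands at -0.64 as deposited and at 0.077 with the covariate.

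Tcf15 showed the largest difference of the 10 genes. Its signal was 121.6, 224.4 and 442.8 in diabetes-exposed replicates 1, 2 and 3, against 635.8, 813.2 and 566.7 in the control replicates. All diabetes-exposed pools were lower than all control pools, but they differed among themselves by 3.64-fold, where the controls differed by 1.43-fold. The means were 263 ± 164 in the diabetes-exposed and 672 ± 127 in the control pools (SD, n = 3 each), with a log2 fold change of -1.53, an interval of -2.44 to -0.63 and an adjusted p of 0.017 in limma. A fall at least as large was seen in 269 genes, or 1.93% of those tested. Diabetes-exposed replicates 1 and 3 had spike ratios close to each other (6.56 and 7.00) and were the lowest and the highest of the 3 in Tcf15. Given the spike ratio as covariate the log2 fold change was -1.63 (SE 0.84, adjusted p = 0.41). Diabetes-exposed replicate 2, as a single pool, gave -1.57 against the mean of the controls. Leaving out 1 pool at a time it ran from -2.01, without diabetes-exposed replicate 3, to -1.08, without diabetes-exposed replicate 1, and the call was lost without control replicate 2 (-1.39, adjusted p = 0.060).

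Meox1, which with Meox2 is needed for normal somites and the axial skeleton, was even across the diabetes-exposed pools, at 1317.8, 1378.5 and 1336.5, and uneven across the control pools, at 1119.7, 913.9 and 1352.1. The groups overlapped through control replicate 3, and the log2 fold change was 0.27 with an interval of -0.046 to 0.59 (limma, adjusted p = 0.17). Without control replicate 3 it was 0.41 (adjusted p = 0.034), and under median centring 0.57 (adjusted p = 0.035).

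Meox2, a homeobox gene of somites and limb muscle, was read by 2 probe sets that gave different answers. The brighter probe set read 643.5, 576.6 and 637.0 in the diabetes-exposed pools and 481.9, 464.2 and 468.1 in the control pools, with no overlap. Its log2 fold change was 0.39, with an interval of 0.15 to 0.64 (limma, adjusted p = 0.022). The dimmer probe set read 173.9, 280.7 and 297.0 in the diabetes-exposed pools and 250.1, 235.9 and 305.7 in the control pools, and the groups overlapped (log2 fold change -0.11, interval -0.62 to 0.41, adjusted p = 0.75). The ratio of the brighter to the dimmer probe set on the same array was 3.70, 2.05 and 2.15 in the diabetes-exposed pools and 1.93, 1.97 and 1.53 in the control pools (two-sided exact permutation p = 0.1). The array maker's name for the brighter probe set marks it as one that may bind more than 1 transcript. Its rise missed the threshold when control replicate 1 (adjusted p = 0.062) or 2 (0.079) was left out, and likewise for diabetes-exposed replicates 1 (0.076) and 3 (0.071). It also missed it once the spike ratio was a covariate (0.21, adjusted p = 0.72). The mean of both probe sets stood at 0.14 (adjusted p = 0.44).

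The promoter window of Meox2 is shown as that of the other gene that rose. It lies at chr12:37108290-37108589, plus strand (GRCm38.p6), with its 1 E-box, CATGTG, in capitals.
Meox2: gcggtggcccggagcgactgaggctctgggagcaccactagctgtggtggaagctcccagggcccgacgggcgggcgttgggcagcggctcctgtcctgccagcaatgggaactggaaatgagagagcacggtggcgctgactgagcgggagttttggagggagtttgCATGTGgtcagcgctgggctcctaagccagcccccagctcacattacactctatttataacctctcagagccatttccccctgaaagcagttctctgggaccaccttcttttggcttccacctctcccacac

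The Meox2 window also held 1 match to the pattern used for the motif of MEF2, a partner of the muscle bHLH factors. Exact matches to that pattern were found in 3.19% of all windows and in none of the other 5 windows of the 10 genes. The Myog window holds the run CTATATTTAT, which the pattern did not count. A window without a match may thus still hold a MEF2 site.

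Tbx6, which specifies presomitic mesoderm, was dim and varied widely. It read 108.3, 49.5 and 72.1 in the diabetes-exposed pools and 98.1, 77.7 and 66.9 in the control pools. Diabetes-exposed replicate 1 was the highest and replicate 2 the lowest of all 6 pools, and the log2 fold change of -0.13 had an interval of -0.92 to 0.65 (limma, adjusted p = 0.80).

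Mesp2, a bHLH factor at the border of the forming somite that Tbx6 activates, was the dimmest of the 12 tested probe sets. It read 79.2, 68.6 and 61.2 in the diabetes-exposed pools and 61.1, 63.8 and 38.7 in the control pools. The groups overlapped only through diabetes-exposed replicate 3, and the log2 fold change was 0.38 with an interval of -0.35 to 1.11 (limma, adjusted p = 0.40). Its promoter window held 2 E-boxes, CAGATG and CAAATG, and 1 match on either strand to AGGTGT, the core of the T-box site, which was found in 13.7% of all windows.

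Tbx18, a T-box repressor of the anterior somite that is also made in limb buds and the venous pole of the heart, was likewise read differently by its 2 probe sets. The brighter probe set was even, at 777.4, 786.6 and 876.9 in the diabetes-exposed pools and 785.9, 841.1 and 846.7 in the control pools, with a log2 fold change of -0.021 and an interval of -0.25 to 0.21 (limma, adjusted p = 0.90). The dimmer probe set read 139.0, 176.3 and 106.9 in the diabetes-exposed pools, all below the 215.5, 220.3 and 206.7 of the control pools, and fell by 0.64 on the log2 scale (interval -1.12 to -0.15, adjusted p = 0.046). The ratio of the brighter to the dimmer probe set on the same array was 5.59, 4.46 and 8.20 in the diabetes-exposed pools and 3.65, 3.82 and 4.10 in the control pools (two-sided exact permutation p = 0.1). The fall of the dimmer probe set did not pass the test under any of the 3 other scalings of the arrays, between -0.41 and -0.30, and stood at 0.077 given the spike ratio as covariate (adjusted p = 0.95). Its signals descended as the spike ratio went up, from the control pools to diabetes-exposed replicate 2 and then to replicates 1 and 3.

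**Figure D3:**
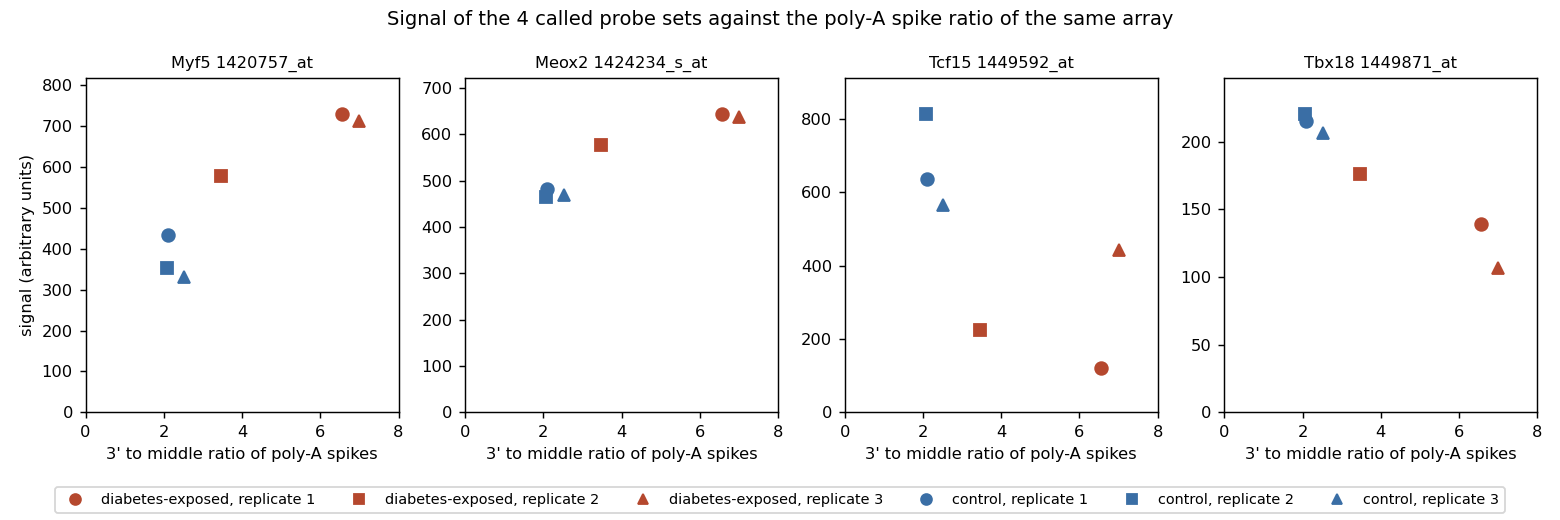
Signal in arbitrary units (vertical axes, from 0) of the 4 probe sets that passed the test against the 3' to middle ratio of the poly-A spikes on the same array (horizontal axes), with 1 point per pool. For Myf5, Meox2 and Tbx18, diabetes-exposed replicate 2 (spike ratio 3.47) lies between the controls and the other 2 exposed pools (6.56 and 7.00), whereas for Tcf15 those 2 pools stand at 121.6 and 442.8 on either side of it.

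Ratios between 2 of the genes on the same array do not depend on a factor by which a whole array is scaled, and 8 pairs with a known relation were compared. Probe sets bind with unequal strength, so that only the difference of a ratio between the groups is read, not its height. Such a ratio can still differ for reasons other than the level of a gene. For Meox2 and Tbx18 the ratio of 2 probe sets of the same gene also did not overlap between the groups (log2 differences 0.50 and 0.61). The ratio of Myf5 to Myod1 was 13.2, 8.31 and 11.5 in the diabetes-exposed pools and 4.53, 2.90 and 3.996 in the control pools, a 2.89-fold difference with no overlap. The ratio of Myog to Myf5 was 0.340, 0.286 and 0.230 in the diabetes-exposed pools and 0.606, 0.715 and 0.702 in the control pools, which was 2.39-fold lower with no overlap. In every diabetes-exposed pool Myf5 thus stood higher than in any control pool relative to Myod1 and to Myog, but not relative to Myf6, where the groups overlapped. The ratio of Tcf15 to Meox1, both genes of the epithelial somite, was 0.0923, 0.163 and 0.331 in the diabetes-exposed pools and 0.568, 0.890 and 0.419 in the control pools, and was 3.49-fold lower. A two-sided exact permutation test gave p = 0.1 for each of these 3 pairs, which is its lower limit, and 0.27 after adjustment over the 8 pairs, so that none of the 3 passed. For the 5 other pairs (Myf5 to Myf6, Myog to Myod1, Meox1 to Meox2, Mesp2 to Tbx6 and Tbx18 to Tbx6) the groups overlapped, with log2 differences between -0.12 and 0.51 and exact p from 0.2 to 0.8. Diabetes-exposed replicate 2, with the lowest spike ratio of its group, was the exposed pool nearest the controls in Myf5 to Myod1. In Myog to Myf5 and Tcf15 to Meox1 it was not. The part of the spike difference in these ratios was not tested.

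**Figure D4:**
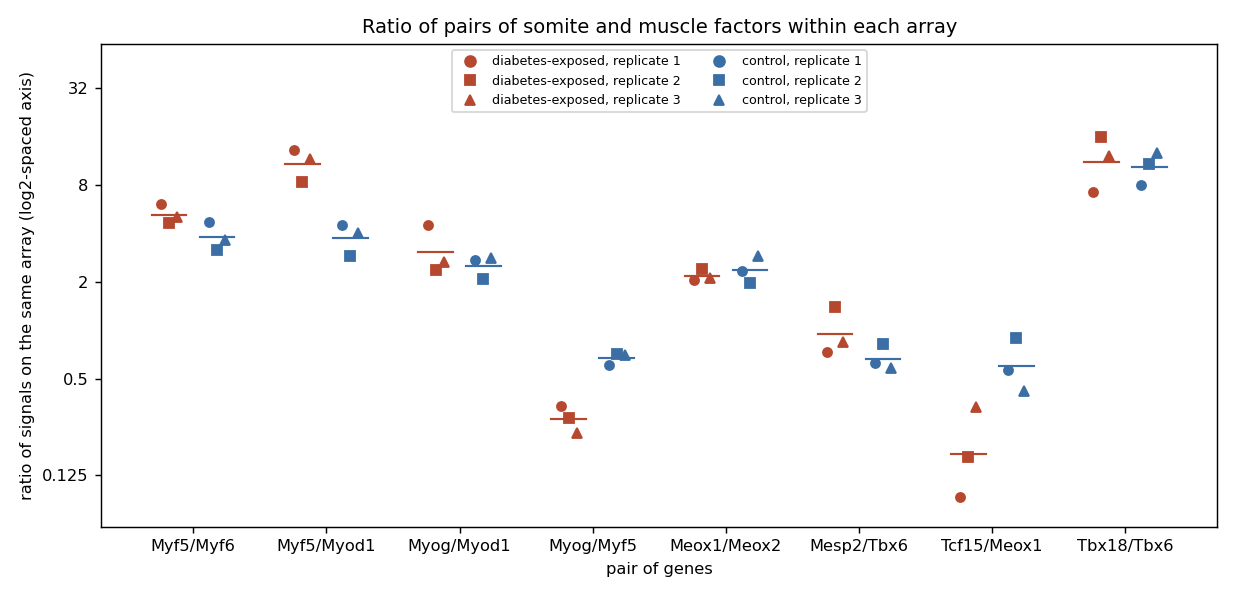
Ratio of the signals of 2 genes on the same array (vertical axis, spaced on a log2 scale) for the 8 pairs, with 1 point per pool, diabetes-exposed pools left of control pools, and a bar for each group's geometric mean. Myf5 to Myod1 lies at 8.31 to 13.2 in the diabetes-exposed pools, above the 2.90 to 4.53 of the control pools, and Tcf15 to Meox1 lies lower in each diabetes-exposed pool than in each control pool.

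The first related list holds genes of presomitic mesoderm and segmentation, where somites are set out. Of its 22 tested genes 9 fell and 2 rose, where 19.9% and 17.6% of all tested genes did, and the median log2 fold change was -0.26, or 0.036 under median centring. Notch1, the receptor whose signal times segmentation, read 546.8, 563.6 and 400.0 in the diabetes-exposed pools and 1819.3, 2059.1 and 1617.9 in the control pools, and fell by 1.87 (limma, adjusted p = 0.00023). Foxc1, a forkhead factor of paraxial mesoderm, fell by 1.56 (adjusted p = 0.00018). Aldh1a2, which makes retinoic acid in somites, and Rspo3, a secreted enhancer of Wnt signals, rose by 0.42 and 0.41 (adjusted p = 0.0087 and 0.013). Notch1 and Foxc1 also passed given the spike ratio as covariate (-1.41 and -1.76), and Aldh1a2 and Rspo3 did not (adjusted p = 0.61 and 0.31). The other 7 that fell, named after their values were seen, were Uncx (-1.89), Dll3 (-1.19), Dll1 (-0.90), Axin2 (-0.84), Foxc2 (-0.69), Nrarp (-0.45) and Notch2 (-0.35). The call of Rspo3 was lost without control replicate 1 or 2. By the methods' t-test, described below, 3 genes of the list fell and 0 rose, and Notch1, Foxc1, Aldh1a2 and Rspo3 did not pass. Over all tested genes that test gave 236 that fell and 54 that rose.

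Of 21 tested genes of the dermomyotome and of migrating muscle precursors 9 fell and 4 rose, with a median of -0.31, where 19.9% of all tested genes fell and 17.6% rose. Median centring turned these counts to 4 that fell and 6 that rose (median -0.013). Pax3, the paired-box gene at the head of the muscle programme, stood at 0.08 and did not pass the test. Pax7, its relative in dermomyotome and dorsal neural tube, read 234.1, 270.7 and 205.4 in the diabetes-exposed pools, against 468.3, 545.7 and 410.5 in the control pools, and fell by 1.004 (limma, adjusted p = 0.0025). Gli2, a transducer of Hedgehog signals, fell by 1.13 (adjusted p = 0.00027). Six4, a homeobox partner of Eya proteins upstream of Myf5, read 947.0, 958.2 and 1000.8 in the diabetes-exposed pools and 659.7, 682.3 and 647.7 in the control pools, a rise of 0.55 (adjusted p = 0.0029), and Sim1, a bHLH-PAS gene of the lateral dermomyotome, rose by 0.88 (adjusted p = 0.011). Among other Six and Eya genes, Six5 fell by 0.98 (adjusted p = 0.0039) and Eya2 by 0.51 (adjusted p = 0.047), and Eya1 stood at 0.28 and did not pass. The largest fall of the list was that of Lbx1 (-1.57, adjusted p = 0.004), a homeobox gene of migrating precursors, and En1 (-0.62), Gab1 (-0.56), Gli3 (-0.47) and Zic1 (-0.31) also fell. The other 2 that rose were Tcf21 (0.35) and Cxcr4 (0.37). The genes from Six5 to Cxcr4 were named after their values were seen. Given the spike ratio as covariate Gli2 passed (-1.29, adjusted p = 0.025), and Six4 (0.53), Sim1 (0.23) and Pax7 (-0.51) did not. By the methods' t-test 1 gene of the list fell, Gli2, and 1 rose, Six4, while Sim1 and Pax7 did not pass.

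Several genes of these 2 lists are also made in the neural tube, whose markers differed in the same pools. Of 18 neural markers 13 fell and 2 rose, where 19.9% of all tested genes fell and 17.6% rose. Their summed signal was 22620 to 25870 in the diabetes-exposed pools and 29200 to 31470 in the control pools. The part of the neural tube in the values of Notch1, Pax7, Gli2 or Sim1 was not tested.

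Of 29 tested genes of skeletal muscle differentiation, downstream of Myog and Myod1, 6 rose and 4 fell, counts near the shares of all tested genes that did so (17.6% and 19.9%). The median was 0.23. The 3 other scalings gave 10 to 13 that rose and 1 or 2 that fell. Tnnc1, the slow and cardiac troponin C, read 4176.4, 3786.1 and 4353.0 in the diabetes-exposed pools and 2113.8, 2201.0 and 1776.1 in the control pools, and rose by 1.02 (limma, adjusted p = 0.00051). Tnni1, the slow skeletal troponin I, rose by 0.79 (adjusted p = 0.0014). Both are also made by the embryonic heart, as are Actc1 (0.50), Ttn (0.69), Mef2c (0.39) and Tpm2 (0.90), the other genes of the list that rose. Genes of the list that the heart makes too but that did not pass the test include Acta1 (-0.047), Des (0.23), Myom1 (0.38) and Rbm24 (-0.00089). The genes from Actc1 to Rbm24 were named after their values were seen. In the same pools 12 of 17 cardiomyocyte markers rose and 1 fell, and their summed signal was 31530 to 35780 in the diabetes-exposed pools and 15890 to 20540 in the control pools. Named after their values were seen, Hand2 fell (-0.61), and Gata4 (-0.68), Nkx2-5 (-0.43), Tbx5 (-0.13) and Ryr2 (0.15) did not pass. The muscle list was not divided into genes made and not made by the heart. The part of the heart in the rise of its 6 genes was not tested. The 4 genes of the muscle list that fell were Mef2d (-0.72, adjusted p = 0.0051), Ryr1, Myh3 (-0.51) and Cdh15 (-0.77), of which Myh3 and Cdh15 were named after their values were seen. Myh3 is the embryonic skeletal myosin heavy chain, and Cdh15 encodes M-cadherin of myoblasts. Ryr1, the calcium release channel of skeletal muscle, read 4.3, 33.0 and 15.2 in the diabetes-exposed pools and 118.2, 147.7 and 116.2 in the control pools, and since the lower values are near background the size of its fall is not fixed. The other 19 tested genes did not pass the test, with log2 fold changes that spanned -0.57 (Rapsn) to 0.78 (Mymx), the ends of that range. The call of Mef2d was lost under median centring, and given the spike ratio as covariate only Tnni1 of the 4 genes named by rule passed (1.05, adjusted p = 0.049). By the methods' t-test 0 genes of the list rose and 0 fell.

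Of 11 tested genes of sclerotome and tendon precursors, the somite's other derivatives, 1 fell and 0 rose in limma. Over all tested genes 19.9% fell and 17.6% rose. The counts of the list were the same at an unadjusted p under 0.05, while 2 rose under median centring and under quantile normalization. By the methods' t-test 0 rose and 0 fell, so that the only call of the list was lost. The gene that fell was Col2a1, the collagen of cartilage precursors, which read 702.3, 1011.7 and 543.1 in the diabetes-exposed pools and 3556.4, 3888.7 and 3507.9 in the control pools, a log2 fold change of -2.33 (adjusted p = 0.00025, and -1.39 with adjusted p = 0.027 given the spike ratio as covariate). The sclerotome factors Pax1 and Pax9 stood at -0.47 and 0.0091 and did not pass the test.

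Of 20 tested partners and inhibitors of the muscle bHLH factors 7 fell, 5 rose and 8 did not pass the test, where 19.9% of all tested genes fell and 17.6% rose. Under median centring 5 fell and 11 rose. Tcf3, which encodes the E-proteins that pair with Myf5, Myod1 and Myog on DNA, read 773.1, 929.0 and 596.1 in the diabetes-exposed pools, against 2866.3, 2744.4 and 2377.8 in the control pools. It fell by 1.82 (limma, adjusted p = 0.00027), and by 1.15 given the spike ratio as covariate (adjusted p = 0.045). Tcf4, another E-protein gene, rose by 0.47, and the third, Tcf12, stood at 0.17 and did not pass the test. Id2, which captures E-proteins, rose by 0.58 (adjusted p = 0.0031), and Snai2, a repressor in mesenchyme, rose by 0.76 (adjusted p = 0.0026). With the covariate they stood at 0.23 and 0.18 and did not pass. Id4, of the same family as Id2, fell by 1.21 (adjusted p = 0.0004), while Id1 and Id3 stood at 0.34 and 0.30 and did not pass. Carm1, an arginine methyltransferase that works with MEF2 in muscle cells, fell by 1.002 (adjusted p = 0.00019) and also passed with the covariate (-1.06, adjusted p = 0.017). By the array maker's names, the probe sets of Id2, Snai2 and Carm1 may bind several transcripts, as may those of Tnni1 and Col2a1. Zeb1 (0.28) and Smyd1 (0.45) were the other genes that rose, and Hdac5 (-1.30), Prmt5 (-1.19), Hdac4 (-0.77) and Hes6 (-0.47) the others that fell. These and Tcf4, Tcf12 and the Id genes other than Id2 were named after their values were seen. By the methods' t-test 1 gene of the list fell, Carm1, and 0 rose, so that Tcf3, Id2 and Snai2 did not pass there.

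**Figure D5:**
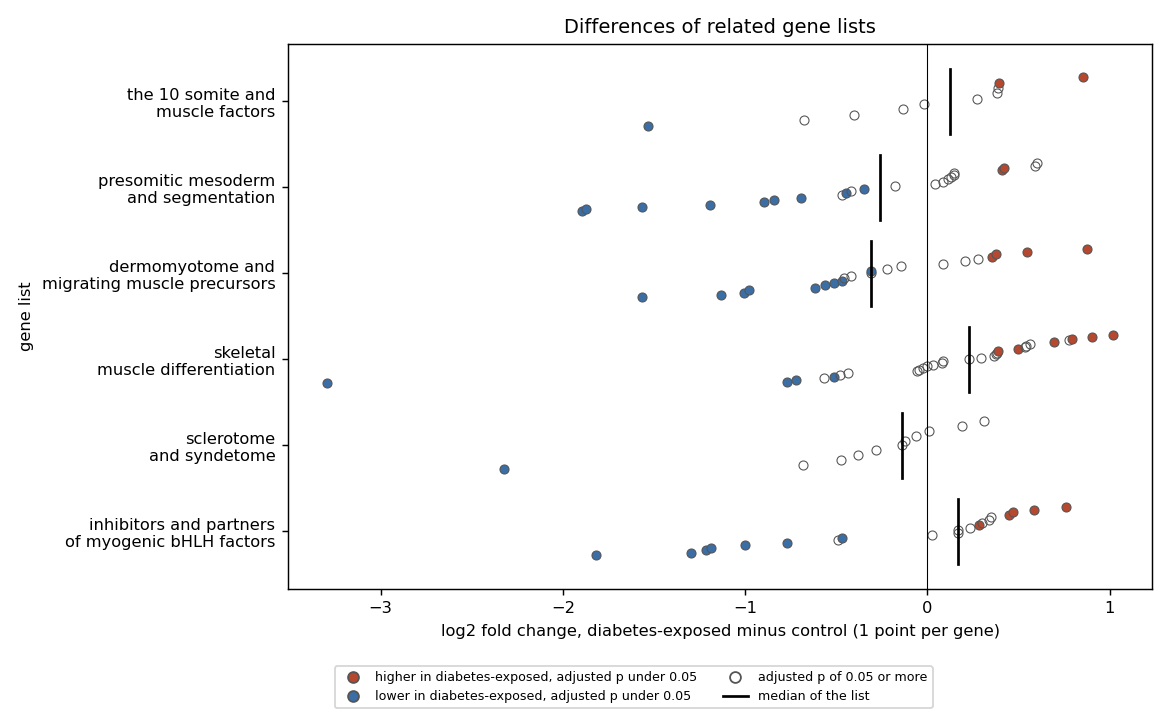
Log2 fold change, diabetes-exposed minus control (horizontal axis), of the 10 factors and of the tested genes of 5 related lists, with 1 point per gene, filled where the adjusted p was under 0.05, and a bar at the median of each list. Of the 10 factors 2 are higher and 1 is lower, and of the 22 segmentation genes 2 are higher and 9 lower, with medians of 0.12 and -0.26 with the signals as deposited.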

How the data were processed

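RNA of 6 pools was profiled with Affymetrix mouse whole-genome arrays. The authors made the deposited signal intensities, which are linear, with GCOS and MAS5 (versions not given in the sources used here) and scaled to a common mean per array, so that a signal is relative to the other transcripts of its pool. Detection calls were not used here. Log2 was taken with no further scaling, and the dimmest 33.3% of probe sets by mean log2 signal over all 6 arrays and 64 control probe sets were left out. The platform's table gave 1 symbol to 34958 probe sets, several to 932 and none to 9211, and a gene was read at its brightest tested probe set. The comparison of groups used limma 3.58.1 (R 4.3.3), with lmFit and a variance trend in eBayes, and p-values were adjusted by Benjamini-Hochberg across every tested probe set. They weigh the difference between the groups against the spread between pools, which eBayes moderates with the spread of the other tested probe sets. Each pool mixes several embryos, so that the spread between embryos was not measured. The fit was tested on simulated data with known changes. Ratios were compared by two-sided exact permutation tests in scipy 1.17.1. With 6 arrays, their number limits the precision. The spike ratio was taken as the geometric mean of 8 ratios of control probe sets.

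The genes named were every probe set of the 10 factors and, in each related list, up to 2 genes that rose and 2 that fell with the smallest adjusted p. The genes, lists and tests were chosen with earlier results of these data known. Alternatives were 3 other scalings, a pseudocount of 32, no filter or one of 50%, a fold minimum of 1.5, no variance trend, the methods' t-test, averaging a gene's probe sets, omitting probe sets not specific to 1 transcript, the spike ratio as a covariate, leaving out pools, and the replicate number as a block. The methods' t-test is a t-test for unequal variances, the kind named in the study's methods, run on log2 signals with the filter and adjustment used here. The study filtered on detection calls and added a second test, so that the counts given here are not those of the study.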

Additional observations from a re-analysis of the deposited data

How the results depend on the processing

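Of the 10 genes, 2 rose and 1 fell with the signals as deposited. The number that rose was 4 under median centring, 1 when a gene's probe sets were averaged, without probe sets that may bind several transcripts or with a fold minimum of 1.5, and 0 by the methods' t-test, given the spike ratio as covariate and for diabetes-exposed replicate 2 alone against the controls. The number that fell was 0 by the methods' t-test and with the covariate. At an unadjusted p under 0.05 the methods' t-test had 3 that rose and 1 that fell, the covariate 0 and 0, and diabetes-exposed replicate 2 alone 1 and 2, against 2 and 2 in limma with the signals as deposited. Leaving out 1 pool at a time, 1 to 3 rose and 0 to 2 fell. The covariate differs between the groups without overlap, so that it and exposure can hardly be told apart. It left 11 genes that rose and 241 that fell over the array, against 2461 and 2779, and the methods' t-test left 54 and 236 after adjustment. Median centring gave 4066 and 1218, a fold minimum of 1.5 gave 990 and 1910, and diabetes-exposed replicate 2 alone gave 897 and 1607. Leaving out single pools gave 1513 to 2804 and 1845 to 3145. The scalings moved the median of all genes by 0.30 (median centring), 0.14 (quantile) and 0.08 (loess).

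The comparison of diabetes-exposed replicate 2 alone has 1 pool in an arm, which is assumed to vary like the 3 controls that give its spread, and a call kept or missed there says little. Myf5 kept its call under 16 of 19 alternatives, with log2 fold changes from 0.54 to 1.15, and lost it by the methods' t-test (adjusted p = 0.074), with the covariate and for diabetes-exposed replicate 2 alone. Tcf15 kept its call under 15 of 19, with log2 fold changes from -2.01 to -1.08, and lost it with no variance trend (adjusted p = 0.058), by the methods' t-test (0.21), with the covariate and without control replicate 2. The brighter Meox2 probe set kept it under 10 of 19 and the dimmer Tbx18 probe set under 6 of 19, where the covariate turned its sign (0.077). Myod1 passed with no variance trend (adjusted p = 0.040). The log2 ratio of Meox1 to Meox2 was 0.13 with the mean of all probe sets, against -0.12, and the other ratios moved by less than 1 SD of the pools under each alternative. Leaving out 1 pool at a time, the log2 ratio ran from 1.34 to 1.72 for Myf5 to Myod1, -1.39 to -1.11 for Myog to Myf5 and -2.28 to -1.36 for Tcf15 to Meox1. The cause of these shifts was not tested. The lowest signals, of Mesp2, Tbx6 and Myod1, limit what can be seen for those genes.

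Pools carry the same replicate numbers in both groups, but the numbers name separate pools. Deviations of same-numbered pools from their group means correlated at -9.16e-06, 0.0761 and 0.118. Diabetes-exposed replicates 2 and 3 matched the control of their own number best, and replicate 1 did not. Correlations this small cannot settle whether same-numbered pools shared a processing step. With the replicate number as a block, 2 genes rose and 1 fell, and over the array 2413 and 2771, and no call among the 10 genes changed.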
